A study of Mus musculus with 31 samples.

Results

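The enzymes that break glucose and glycogen down to lactate were followed through chemical injury of the mouse masseter muscle (MM), the jaw-closing muscle, as 10 genes of the 22609 listed in each of 31 RNA-seq libraries. They were taken by gene symbol: the hexokinases Hk1 and Hk2, the muscle phosphofructokinase Pfkm, the aldolase Aldoa, the phosphoglycerate kinase Pgk1, the muscle phosphoglycerate mutase Pgam2, the muscle enolase Eno3, the lactate dehydrogenase subunits Ldha and Ldhb, and the muscle glycogen phosphorylase Pygm. All 10 passed the filter on low counts in each comparison. Adult male C57BL/6J mice had received an injection into the left MM of complete Freund's adjuvant (CFA, an oil emulsion with killed mycobacteria that provokes inflammation), of collagenase type 2 (Col, an enzyme that digests collagen) at 0.2U or 10U, or of saline vehicle, and the study asked how MM transcription changes as muscle pain develops and resolves. The groups were CFA 1d, CFA 5d and CFA vehicle with 3 mice each, the 0.2U Col groups 1C and RPC with 4 mice each, 2d, 6d and 12d post-Col (10U) with 4, 3 and 4 mice, and Col vehicle with 3 mice. The days are those in the labels, and the paper's text gives other days for the first and the last of the 10U groups. The labels give no day for 1C and RPC. Each library came from the whole dissected muscle of 1 mouse, so in all that follows fewer muscle fibres and less RNA per fibre cannot be told apart.

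Glycolysis splits glucose into pyruvate in the cytosol and yields ATP without oxygen, and lactate dehydrogenase turns the pyruvate into lactate. Skeletal muscle feeds the pathway from blood glucose, through hexokinase, and from stored glycogen, through glycogen phosphorylase, which phosphorylase kinase switches on when calcium rises in a contracting fibre. Fast fibres hold the most of these enzymes, and for several steps they carry an isoform of their own (PFKM, PGAM2, ENO3, PYGM) in place of the isoform found in other cells.

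The sequences just upstream of 4 members are shown because they stand for the patterns that follow: Hk2 was the hexokinase called lower at 6d post-Col (10U), and Pgam2, Eno3 and Pygm are the muscle isoforms with the lowest estimates at 2d. Each is the 250 bases before the RefSeq start site on build GRCm38.p6, 5′ to 3′ on the strand of the gene, with capitals on matches to ACGTG (the core bound by HIF1 and related factors, searched on both strands) and to CANNTG (the E-box core, bound by MYOD and many other factors); the 2 motifs overlap where CACGTG occurs.
Hk2 (chr6:82774455-82774704, minus strand): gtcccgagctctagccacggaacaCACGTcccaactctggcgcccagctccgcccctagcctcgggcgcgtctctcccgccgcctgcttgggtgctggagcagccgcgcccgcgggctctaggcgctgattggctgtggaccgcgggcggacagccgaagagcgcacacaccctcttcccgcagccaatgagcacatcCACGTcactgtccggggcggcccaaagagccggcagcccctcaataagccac
Pgam2 (chr11:5803797-5804046, minus strand): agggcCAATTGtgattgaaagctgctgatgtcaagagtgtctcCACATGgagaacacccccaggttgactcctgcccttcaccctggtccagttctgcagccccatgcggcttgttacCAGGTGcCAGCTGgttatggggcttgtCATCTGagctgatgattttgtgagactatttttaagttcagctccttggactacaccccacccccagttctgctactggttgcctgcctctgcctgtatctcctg
Eno3 (chr11:70656926-70657175, plus strand): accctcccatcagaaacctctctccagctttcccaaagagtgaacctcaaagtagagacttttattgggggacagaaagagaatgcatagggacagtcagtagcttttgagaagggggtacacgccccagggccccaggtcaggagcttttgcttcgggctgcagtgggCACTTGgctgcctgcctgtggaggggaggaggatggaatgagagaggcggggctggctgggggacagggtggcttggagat
Pygm (chr19:6384158-6384407, plus strand): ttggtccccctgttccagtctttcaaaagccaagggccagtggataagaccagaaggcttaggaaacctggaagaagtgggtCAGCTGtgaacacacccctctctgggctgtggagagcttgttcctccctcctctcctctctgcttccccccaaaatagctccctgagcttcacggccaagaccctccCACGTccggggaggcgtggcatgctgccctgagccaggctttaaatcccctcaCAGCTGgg
Hk2 held 2 matches to ACGTG and 0 to CANNTG, Pgam2 0 and 5, Eno3 0 and 1, and Pygm 1 and 2. RefSeq gave 17 such windows for the 10 members. ACGTG was found in 8 of the 17, from 6 genes (Hk2, Pfkm, Aldoa, Pgk1, Ldha and Pygm), against 16.6% of all 32851 windows of this length, and CANNTG in 14 of the 17, from 8 genes, against 66.2%. A looser pattern than the site of MEF2 factors, CTA and TAG with any 4 bases between them, was in 1 of the 17, that of Ldhb, against 3.20% of all. The MEF2 site itself was not searched. Windows of the same gene can overlap, and 2 of the Aldoa windows hold the same ACGTG match and the same CANNTG match, so the 17 are not independent. A match is only a match of letters in this window.

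The libraries held 14843778 to 29076671 reads on genes, with a median of 20834472. Levels are given per mouse as CPM, the count relative to a library size scaled by TMM (a factor that evens out the bulk of genes between libraries), and a gene was called changed when edgeR's quasi-likelihood test gave an adjusted p under 0.05 over all genes tested. The tissue carried its markers: none of 12 skeletal muscle fibre markers was at 0 in any group, and their summed level was 83290 to 172993 CPM in the vehicle mice. Salivary gland markers stood apart. Their sum was above 1000 CPM in 16 of 31 libraries and reached 161400 CPM, among them 2 of the 3 Col vehicle mice (104571 and 23658 CPM), 3 of 4 mice at 2d post-Col, all 4 RPC mice and all 3 CFA 5d mice, while the 6d post-Col mice had 0.730 to 2.36 CPM. With library totals in place of TMM the median log2 fold change of all genes moved from 0.02 to 0.38 at 2d and from 0.01 to 0.54 at 6d, and the calls went from 164 higher and 155 lower to 100 and 27 at 2d, and from 1994 and 1906 to 4347 and 599 at 6d.

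In the 6 vehicle mice the members spanned a wide range of levels per length, given in RPKM (CPM per kilobase of exon). Aldoa, which splits fructose bisphosphate, was highest at 3944 ± 1515 RPKM (SD, n = 6), followed by Eno3 (2774 ± 825), Pgam2 (2387 ± 641) and Pygm (2112 ± 683). The mice ranged from 2173 to 5693 RPKM for Aldoa, 1816 to 3800.2 for Eno3, 1535 to 3286 for Pgam2 and 1265 to 3029 for Pygm, so these neighbours overlapped. Pfkm, the committed step of glycolysis, came next at 1377 ± 409 RPKM, and Ldha, the pyruvate-reducing subunit, at 443 ± 114. Hk2, the insulin-sensitive hexokinase of muscle, had 90.9 ± 24.8 RPKM, Ldhb, the subunit of heart and oxidative fibres, 40.6 ± 9.91, and Hk1, the hexokinase of most tissues, 4.44 ± 1.17. Pgk1 was listed at 12.2 ± 6.76 RPKM, but 92.9% of the 50-base stretches of its transcript also occur elsewhere in the mm9 genome. The share was 0 to 0.45% for Hk1, Hk2, Pfkm, Pgam2, Eno3 and Pygm, 10.3% for Aldoa, 23.8% for Ldha and 27.8% for Ldhb. Whether the matching places are annotated genes was not tested. The level and the changes of Pgk1 are uncertain because of its high share. Between the 2 vehicle groups 0 of 10 members were called by edgeR and by DESeq2 and 0 had an unadjusted p under 0.05, with log2 differences (CFA vehicle against Col vehicle) from −0.43 for Hk1 to 0.66 for Pgk1, where edgeR called 0.0426% of all genes.

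On build mm9, which the files use, the hexokinase genes are Hk1 at chr10:61731603-61842656 and Hk2 at chr6:82675019-82724448. The later steps are Pfkm at chr15:97923020-97962878, Aldoa at chr7:133938748-133944265, Pgk1 at chrX:103382439-103399038, Pgam2 at chr11:5701643-5703736 and Eno3 at chr11:70470704-70476015. The lactate dehydrogenases are Ldha at chr7:54096845-54110997 and Ldhb at chr6:142438769-142456477, on the chromosomes of Aldoa and Hk2, and glycogen phosphorylase is Pygm at chr19:6384399-6398459. Counts cover the whole gene. A gene on the opposite strand overlaps Hk1, Hk2 and Pfkm.

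**Figure D1:**
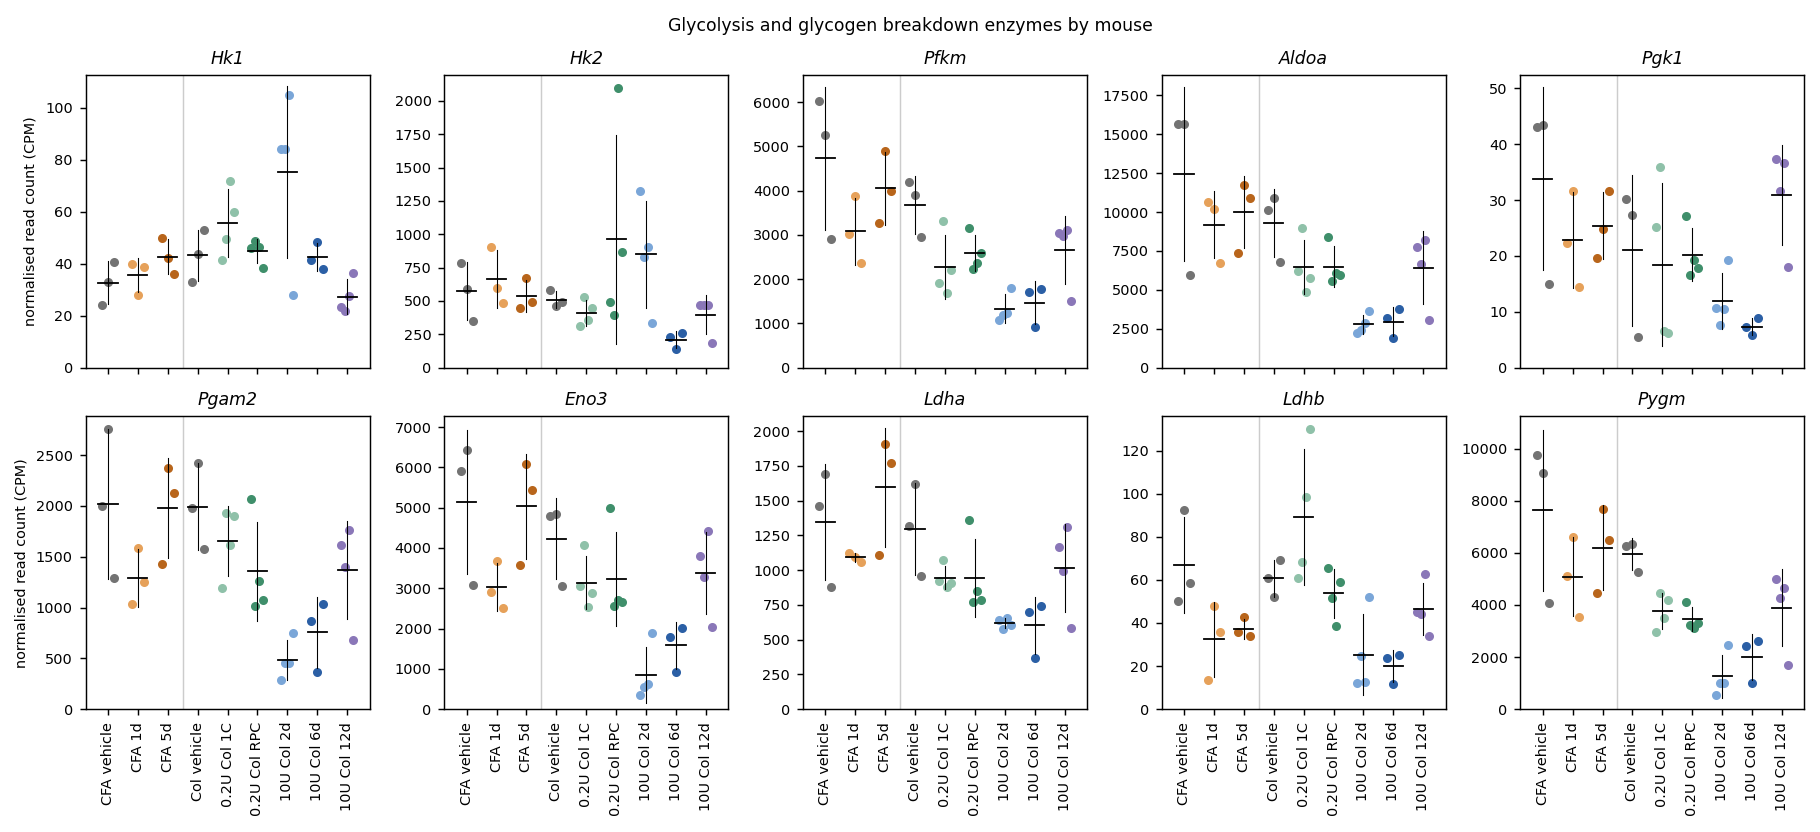
CPM of each of the 10 members in each of the 31 mice (1 point per mouse, horizontal bar at the group mean, vertical line of 1 SD each way, each axis from 0), in the 9 groups. The 2d and 6d post-Col groups have the lowest means for Pfkm, Aldoa, Pgam2, Eno3, Ldha and Pygm, Hk1 is highest in 3 of the 4 mice at 2d, and Hk2 is lowest at 6d.

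At 2d post-Col (10U) 6 of the 10 members lay below vehicle in every mouse, 5 enzymes of glycolysis after hexokinase and glycogen phosphorylase, against 10.8% of all genes that were lower without overlap, and 1 of the 6 passed the test. Pgam2, which moves the phosphate of 3-phosphoglycerate, fell to 0.239 times the vehicle level and was the 1 member called of 10, against 1.08% of all genes called lower. It read 1977, 2428 and 1576 CPM in the vehicle mice and 283, 454, 453 and 753 CPM at 2d (log2 fold change −2.07, SE 0.38, adjusted p = 0.0483, edgeR). Every 2d mouse was under every vehicle mouse, and the same held for Pfkm, Aldoa, Eno3, Ldha and Pygm.

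Eno3, which makes phosphoenolpyruvate, had the lowest estimate, its mean being 4234 ± 1011 CPM (SD, n = 3) in vehicle and 855 ± 699 CPM (SD, n = 4) at 2d. The vehicle mice read 4789, 4845 and 3067 CPM and the 2d mice 363, 548, 617 and 1890.4 CPM (log2 fold change −2.34, SE 0.59, adjusted p = 0.0613, edgeR). Pygm, which frees glucose phosphate from glycogen, read 6250.3, 6358 and 5270.2 CPM in vehicle and 563, 1015, 1022 and 2461 CPM at 2d (log2 fold change −2.27, SE 0.52, adjusted p = 0.054, edgeR). In both genes replicate 4 was the 2d mouse nearest to vehicle. Aldoa went from 10136, 10894 and 6807 CPM to 2227, 2409, 2869 and 3620.1 CPM (log2 fold change −1.77, SE 0.37, adjusted p = 0.0506, edgeR). Pfkm read 4189.8, 3904 and 2940.0 CPM and then 1075, 1191, 1232 and 1808 CPM (log2 fold change −1.51, SE 0.33, adjusted p = 0.0532, edgeR). Ldha read 1318, 1619 and 956 CPM and then 641, 577, 659 and 602 CPM (log2 fold change −1.10, SE 0.26, adjusted p = 0.056, edgeR), with the 4 mice at 2d close together. These 5 genes missed the threshold by little, their adjusted p lying between 0.0506 and 0.0613.

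The hexokinases took the other sign at 2d. Hk2 read 579, 459 and 491 CPM in the vehicle mice and 1322, 833, 905 and 337 CPM at 2d (log2 fold change 0.69, SE 0.43, adjusted p = 0.287, edgeR). Hk1 read 33.0, 43.8 and 52.8 CPM and then 84.2, 84.1, 105 and 28.1 CPM (log2 fold change 0.76, SE 0.41, adjusted p = 0.228, edgeR). In both, 3 of the 2d mice were above every vehicle mouse and replicate 4 was below every vehicle mouse, and neither passed the test. Ldhb, at 60.9, 51.9 and 69.3 CPM in vehicle and 12.2, 24.6, 12.4 and 52.0 CPM at 2d, and Pgk1, with log2 fold changes of −1.30 and −0.83, did not pass either. The count of called members at 2d turned on single mice: without 2d replicate 4 it was 9, with Hk1 and Hk2 higher and Pfkm, Aldoa, Pgam2, Eno3, Ldha, Ldhb and Pygm lower, but 17.9% of all genes were then called higher and 18.4% lower. Without Col vehicle replicate 3 it was 2, with 4.27% of all genes called. Without any one of the other 5 mice it was 0, with 0.0843% to 0.176% of all genes called. It was 7, all lower, by DESeq2, which called 11.4% of all genes lower.

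**Figure D2:**
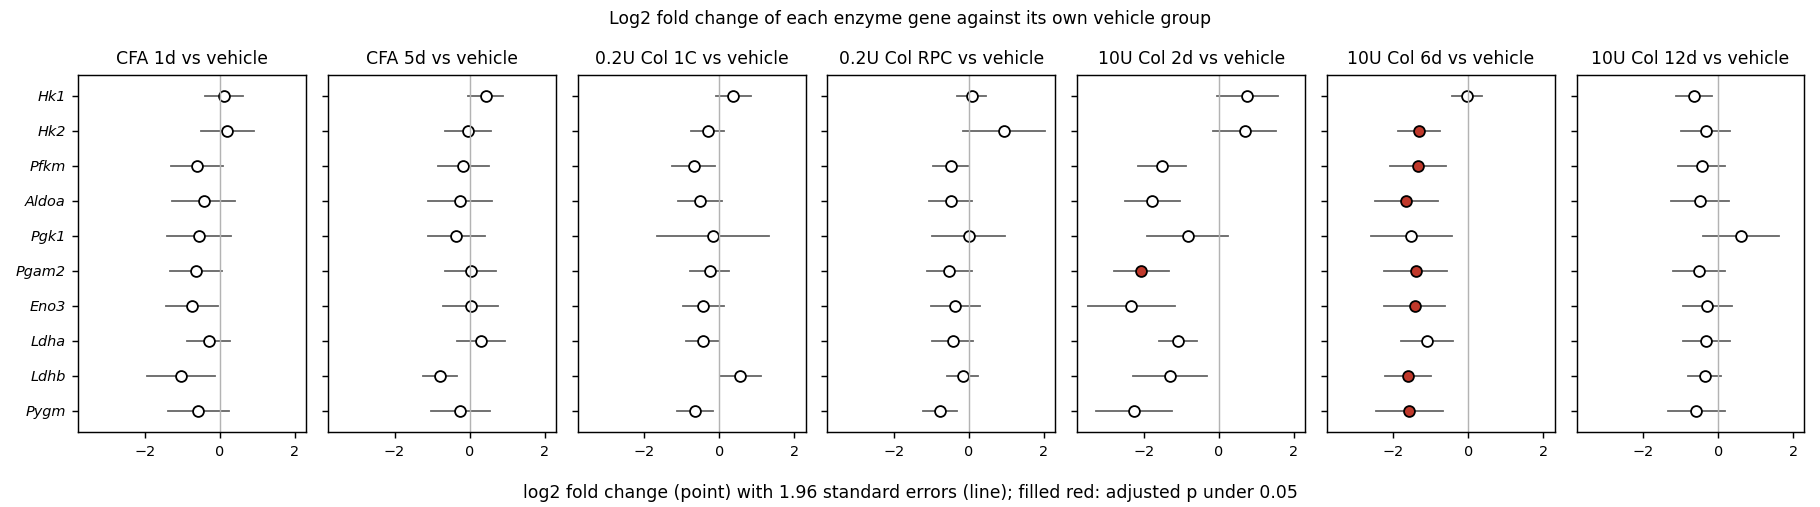
log2 fold change of each member against its own vehicle in the 7 treated groups (edgeR, points with intervals from the standard error, filled red where called). At 6d post-Col 7 members are called lower, at 2d 1 (Pgam2), and at 12d 0, where 9 of 10 estimates are still under 0.

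At 6d post-Col (10U) 7 of the 10 members had fallen, against 13.3% of all genes called lower, and 0 had risen. They were Hk2, Pfkm, Aldoa, Pgam2, Eno3, Ldhb and Pygm, at 0.316 (Aldoa) to 0.403 (Hk2) times the vehicle level, and all 7 also passed the stricter rule of a fold over 2 and a mean over 1 RPKM, which 7.26% of all genes passed with a fall. The 6d mice were under all vehicle mice in 8 of the 10, the called ones and Ldha, against 21.2% of all genes. The members' median log2 fold change was −1.42, against 0.01 for all genes tested. Together the 10 took 2.15 to 2.82% of the reads in Col vehicle mice, 0.751 to 1.07% at 2d, 0.758 to 1.52% at 6d and 1.35 to 2.59% at 12d, so the 2d and 6d mice lay under the vehicle mice on unscaled totals as well.

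Hk2, which traps glucose in the fibre, read 226, 138 and 261 CPM at 6d, under all 3 vehicle mice (log2 fold change −1.31, SE 0.29, adjusted p = 0.0182, edgeR). Ldhb read 23.6, 11.6 and 25.3 CPM against 51.9 to 69.3 CPM in vehicle (log2 fold change −1.61, SE 0.31, adjusted p = 0.0131, edgeR). Aldoa read 3173, 1933 and 3753 CPM (log2 fold change −1.66, SE 0.43, adjusted p = 0.0288, edgeR). In all 7 called members replicate 2 was the lowest of the 6d mice. Pygm read 2441, 987 and 2606 CPM (log2 fold change −1.58, SE 0.45, adjusted p = 0.0388, edgeR). Pfkm read 1716, 911 and 1768 CPM (log2 fold change −1.34, SE 0.38, adjusted p = 0.0374, edgeR). Eno3, at 1798, 927 and 2021 CPM (log2 fold change −1.43, SE 0.41, adjusted p = 0.0397, edgeR), was lower than vehicle in each 6d mouse, and each of these mice lay above replicates 1 to 3 at 2d. Pgam2 read 867, 364 and 1038 CPM (log2 fold change −1.41, SE 0.43, adjusted p = 0.0462, edgeR). Ldha, at 702, 367 and 742 CPM, had an adjusted p of 0.0525 (edgeR). Hk1 overlapped with vehicle at 41.3, 48.4 and 38.0 CPM (log2 fold change −0.05), and Pgk1 was at 7.26, 5.85 and 8.83 CPM with 1 vehicle mouse below them (log2 fold change −1.53, SE 0.55, adjusted p = 0.0741, edgeR).

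The 6d calls also rested on the number of mice. Without any one 6d mouse the count was 1 or 2, with 2.44% to 6.20% of all genes called lower. Without Col vehicle replicate 1 or 2 it was 2, with 7.06% and 9.13% of all genes called lower. Ldhb was called in each of these 5 cases. Without Col vehicle replicate 3 it was 9, with 41.5% of all genes called. On library totals the members' log2 fold changes at 6d ran from −1.12 (Ldhb) to 0.48 (Hk1), with 9 of 10 still negative, the sign of Hk1 turned, and 1 (Ldhb) called, against 4.19% of all genes called lower. Leaving out the libraries above 1000 CPM of salivary gland markers and pooling the vehicle groups, which left the 3 mice at 6d against 2 CFA vehicle mice and 1 Col vehicle mouse, called all 10, 9 of them lower, and with them 55.9% of all genes, 26.7% lower.

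Between 2d and 6d only Hk2 changed among the members, 1 of 10 against 4.05% of all genes called lower. It stood at 6d at 0.250 times the 2d level, and the 6d mice (138 to 261 CPM) lay under the 2d mice (337 to 1322 CPM), as in 12.5% of all genes (log2 fold change −1.999, SE 0.48, adjusted p = 0.0429, edgeR). The call was lost without any one of 6 of the mice, with 0.881% to 9.54% of all genes called. Without 2d replicate 4 there were 3 calls, Hk2 and Hk1 lower and Eno3 higher, with 28.8% of all genes called. The other 9 members had log2 differences from −0.80 (Hk1) to 0.91 (Eno3).

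At 12d post-Col (10U) no member was called against vehicle by edgeR or by DESeq2, where edgeR called 1.23% of all genes, and 1 had an unadjusted p under 0.05. Most members lay near the vehicle range in 3 of the 4 mice and below it in replicate 4. Hk2 read 469.6, 471, 469 and 182 CPM, Pfkm 3043, 2976, 3110.3 and 1504 CPM, and Pygm 4984, 4250.2, 4661 and 1707 CPM. Replicate 4 was the lowest in each of these, and also in Aldoa (7769, 6661, 8198 and 3070.2 CPM), Pgam2 (1617, 1401, 1766 and 677 CPM) and Eno3 (3791, 3292, 4426 and 2033 CPM). That mouse also had the highest summed fibroblast and matrix markers of the group (17900 CPM, the others from 3018 CPM), a value in the range of the 6d mice (12098 to 20852 CPM). The part of these cells in the result was not tested. Pygm was the 1 member with all 12d mice under all vehicle mice, against 7.82% of all genes.

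Compared with 6d, 3 of the 10 members had changed by 12d. Pgk1 and Ldhb rose, 2 of 10 against 13.4% of all genes called higher, and Hk1 fell, 1 of 10 against 13% called lower. Ldhb went from 23.6, 11.6 and 25.3 CPM to 45.1, 44.0, 62.9 and 33.8 CPM, without overlap (log2 fold change 1.23, SE 0.32, adjusted p = 0.0318, edgeR). Hk1 went from 41.3, 48.4 and 38.0 CPM to 23.2, 21.6, 27.5 and 36.5 CPM, also without overlap (log2 fold change −0.62, SE 0.19, adjusted p = 0.0447, edgeR). Pgk1, most of whose transcript stretches also occur elsewhere in the genome, went from 7.26, 5.85 and 8.83 CPM to 37.4, 31.6, 36.6 and 18.01 CPM (log2 fold change 2.10, SE 0.30, adjusted p = 0.00907, edgeR). The other 7 members had positive estimates, from 0.77 (Ldha) to 1.14 (Aldoa), and no call. Without 12d replicate 4 all 10 were called, 9 higher and Hk1 lower, with 25% of all genes called higher and 29.1% lower. Without any one of the other 6 mice only Pgk1 was called, with 0.722% to 6.93% of all genes called higher. In all, 3 members were higher without overlap, against 17.6% of all genes, and Hk1 lower, against 18.7%.

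The 0.2U dose and CFA gave fewer edgeR calls of members than 10U Col at 2d and 6d. In each of the CFA 1d, CFA 5d, 1C and RPC groups 0 of 10 members were called by edgeR, which called 0%, 1.11%, 0% and 0% of all genes, and 0, 1, 1 and 1 members had an unadjusted p under 0.05. DESeq2 called 0, 1 (Ldhb), 1 (Pygm) and 1 (Pygm), and of all genes 0.402%, 6.36%, 3.58% and 3.10%. Pygm read 2947, 4471, 3486 and 4189 CPM in 1C (log2 fold change −0.65) and 4128, 3233, 3130.4 and 3304 CPM in RPC (log2 fold change −0.77). In both groups all 4 mice were under the vehicle mice, which 6.13% and 7.21% of all genes also were. Markers of muscle fibres were low in the same mice. The 12 markers summed to 71088 to 95151 CPM in 1C and 68432 to 88499 CPM in RPC against 91093 to 136298 CPM in Col vehicle, where 1C but not RPC overlapped. The 4 fibre myosins summed to 15849 to 25483 CPM and 18330 to 24548 CPM against 30220 to 31769 CPM, without overlap, and the part of fibre content in the Pygm values was not tested. Ldhb was the 1 member with CFA mice under all CFA vehicle mice, at 13.5, 47.9 and 35.8 CPM at 1d and 35.8, 42.5 and 33.7 CPM at 5d against 50.1, 92.3 and 58.3 CPM in vehicle (log2 fold changes −1.03 and −0.79), as were 3.13% and 6.89% of all genes. The 2 comparisons share these vehicle mice. Hk2 varied most in RPC, where it read 488, 394, 2100.3 and 867 CPM, with replicate 3 above every other mouse of the series (log2 fold change 0.93, SE 0.56, adjusted p = 0.481, edgeR).

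The members' difference from vehicle at 6d post-Col (10U) was set against that at 5d post-CFA in 1 model of both experiments. All 10 interaction estimates were negative, from −0.48 to −1.47 on the log2 scale with a median of −1.31 against −0.04 for all genes, but 0 were called by edgeR, where 6.96% of all genes were called lower. The adjusted p ran from 0.0813 to 0.357, 7 had an unadjusted p under 0.05, and DESeq2 called 4 (Hk2, Aldoa, Eno3 and Ldha), and 10.2% of all genes lower. On library totals the estimates were smaller, from −0.61 to 0.43, and 2 of the 10 were positive. Salivary gland markers differed between the groups in opposite directions in the 2 experiments, and their part was not tested.

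Where other cells use a different isoform of the same step, that isoform was followed beside the member. Hk2 was also set against Hk1 and Ldha against Ldhb, pairs in which both genes are members. At 2d the phosphofructokinases of liver and platelets, Pfkl and Pfkp, read 79.3, 59.0, 72.5 and 14.8 CPM and 64.5, 53.0, 70.6 and 16.5 CPM, against 16.4, 21.4 and 17.7 CPM and 20.2, 18.9 and 23.2 CPM in vehicle. Replicates 1 to 3 were above vehicle and replicate 4 was not, and neither gene was called (log2 fold changes 1.57 and 1.25). Hk3, a hexokinase of leukocytes, read 11.8, 10.1, 15.5 and 3.77 CPM at 2d (log2 fold change 0.95, not called). A ratio of the 2 isoforms within a library does not depend on library scaling. The log2 ratio per length of Pgam2 to Pgam1 was 10.87 to 12.07 in vehicle and 6.49 to 10.00 at 2d, that of Pfkm to Pfkl 7.90 to 8.52 and 4.29 to 7.46, and that of Pygm to Pygb, the brain phosphorylase, 8.04 to 8.36 and 5.91 to 7.04. Of 8 ratios, 5 did not overlap with vehicle at 2d, all lower: Pgam2/Pgam1 (−3.74), Pfkm/Pfkl (−2.85), Aldoa/Aldoc (−2.72), Pfkm/Pfkp (−2.59) and Pygm/Pygb (−1.81).

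At 6d 5 ratios did not overlap, all lower, of which Hk2/Hk1 (−1.33, 2.02 to 3.29 against 3.73 to 4.65 in vehicle) was separated at 6d and not at 2d, and Aldoa/Aldoc at 2d and not at 6d. The other 4 were Pgam2/Pgam1 (−2.50), Pfkm/Pfkp (−1.66), Pfkm/Pfkl (−1.36) and Pygm/Pygb (−1.35). At 12d 0 of 8 were separated, and in CFA 1d, CFA 5d, 1C and RPC 0, 2, 1 and 3. By the two-sided exact permutation test the smallest p that 4 against 3 mice allow is 0.0571 and that 3 against 3 allow is 0.1, so no ratio could pass 0.05, and the smallest adjusted value over the 56 tests was 0.32. Eno3/Eno1 was not formed because Eno1 had 0 reads in 30 of the 31 libraries, and 91.9% of the 50-base stretches of Pgam1 occur elsewhere.

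**Figure D3:**
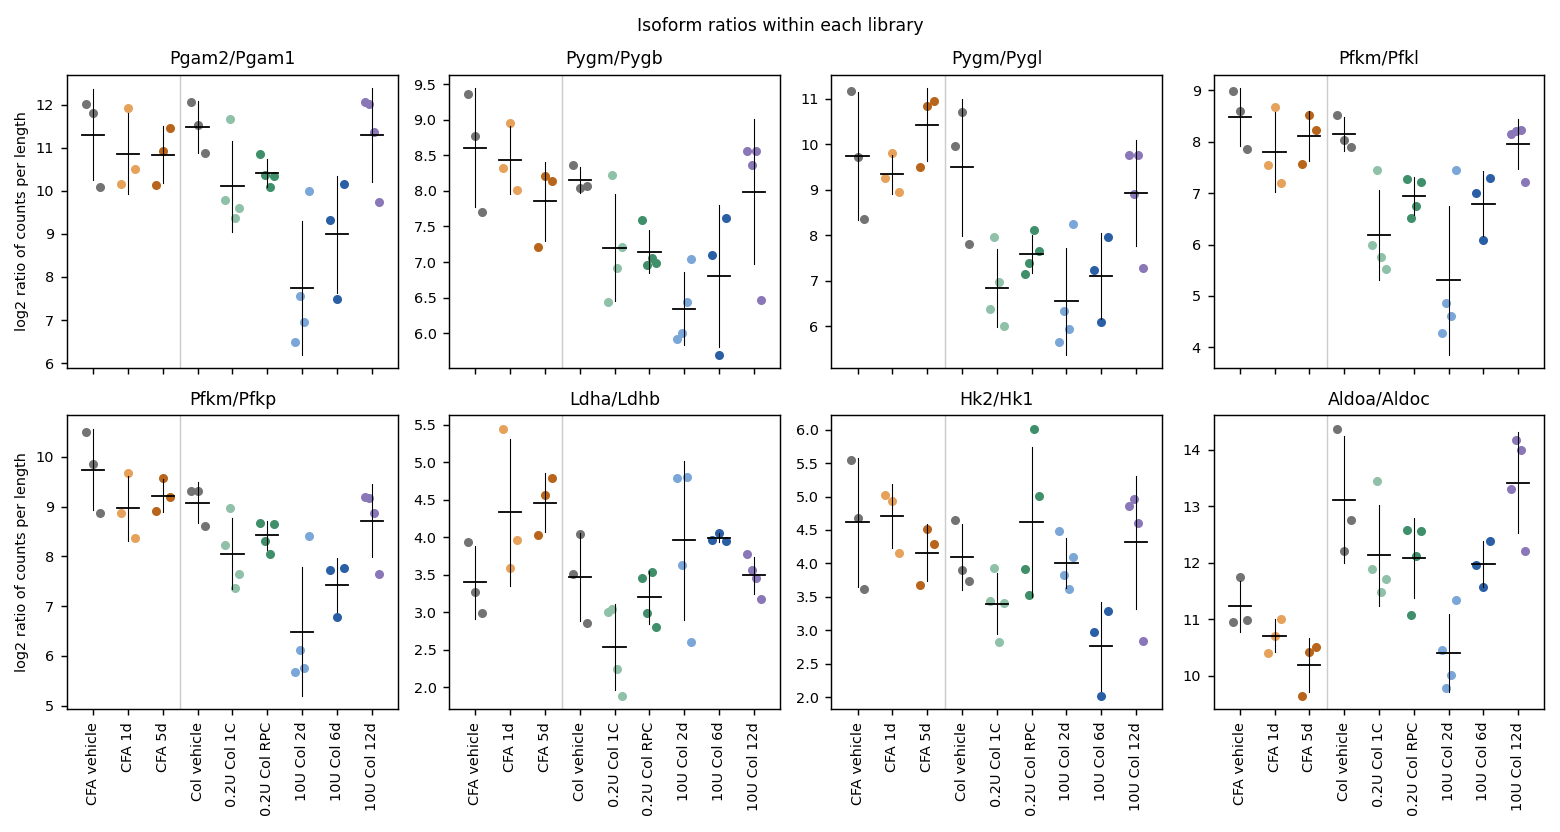
log2 ratio of isoforms of the same step, in counts per length, for 8 pairs in each mouse, with the group mean (horizontal bar) and SD (vertical line). In Hk2/Hk1 and Ldha/Ldhb both genes are members. The 2d and 6d post-Col mice lie under the Col vehicle mice in 5 of the 8 pairs each, and the 12d mice overlap with vehicle in all 8.

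The other 73 genes of the pathway, in 7 lists, were called most often at 6d. There 65 were tested, 21 fell and 3 rose, against 13.3% of all genes called lower and 14% called higher. At 2d 67 were tested, 8 fell and 0 rose, against 1.08% called lower. At 12d 1 of 66 fell, where 1.23% of all genes were called, and in CFA 1d, CFA 5d, 1C and RPC 0 were called by edgeR, with 3, 6, 23 and 24 at an unadjusted p under 0.05. Among the other enzymes of glycolysis itself, triose phosphate isomerase Tpi1 fell at 2d (log2 fold change −1.48) and pyruvate kinase Pkm2 at 6d (−0.95), and 40.6% of the 50-base stretches of Pkm2 occur elsewhere. Bpgm, which makes and removes bisphosphoglycerate, fell at both times (−1.54 and −1.26).

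Glycogen breakdown was the list with the most calls at 2d, 4 of 10, and at 6d 5 of its 10 genes fell and 1 rose. Phosphorylase kinase, which activates Pygm, gave 3 of the 4 at 2d and 3 of the 5 lower ones at 6d. Its subunit Phka1 fell at 2d and 6d (−1.81 and −1.33) and Phkb at 2d (−1.35). The catalytic subunit of muscle, Phkg1, fell at 6d from 669.8 ± 119 CPM (SD, n = 3) to 120.1 ± 50.3 CPM (SD, n = 3), the largest change of the list (log2 fold change −2.49, SE 0.38, adjusted p = 0.00629, edgeR). The other catalytic subunit, Phkg2, fell at 2d, 6d and 12d (−2.07, −1.74 and −1.88), the 1 gene of the lists called at all 3 times. The phosphoglucomutase symbols here are those of the deposited counts, and other annotations may assign them differently. The gene listed as Pgm2 (mm9 chr4:99602019-99659899) fell at 2d and 6d (−1.87 and −1.42). The gene listed as Pgm1 (mm9 chr5:64484175-64519594) rose at 6d (1.12). Phkg1 overlaps Chchd2 on the same strand, and the strand setting of the counting is not given in the sources used here, so reads of overlapping genes may be split between them.

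Of the 9 tested genes of glycogen synthesis and its scaffolds, the glycogen phosphatase Epm2a fell at 6d (−0.80) and Stbd1, a protein that ties glycogen to membranes, rose (2.24). Of the 6 tested regulators of glycolysis 3 fell at 6d, the muscle fructose bisphosphatase Fbp2 (−1.79), Pfkfb1 (−1.62), which makes and breaks the bisphosphate that activates phosphofructokinase, and 9630033F20Rik (−1.27, also at 2d with −0.80). Of the 16 genes for the fate of pyruvate and lactate 7 fell at 6d, among them the lactate exporter Slc16a3 (−1.42), the mitochondrial pyruvate carrier gene Brp44 (−1.18), the pyruvate dehydrogenase subunit Pdha1 (−1.10) and the alanine transaminase Gpt2 (−1.82). Of the 10 regulators of transcription, Hif1a, the hypoxia factor, rose at 6d (1.37), the nuclear receptor Nr4a1 fell at 2d and 6d (−1.84 and −2.67) and Esrra, a receptor of oxidative metabolism, fell at 6d (−1.10). From 6d to 12d 9 of 65 rose and 8 fell, shares close to the 13.4% and 13% of all genes. The risers were led by the glycogen targeting subunit Ppp1r3c (2.23) and Phkg1 (1.91), and among those that fell were Hk3 (−1.93), Myc (−1.49), Stbd1 (−1.16) and Hif1a (−0.87).

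**Figure D4:**
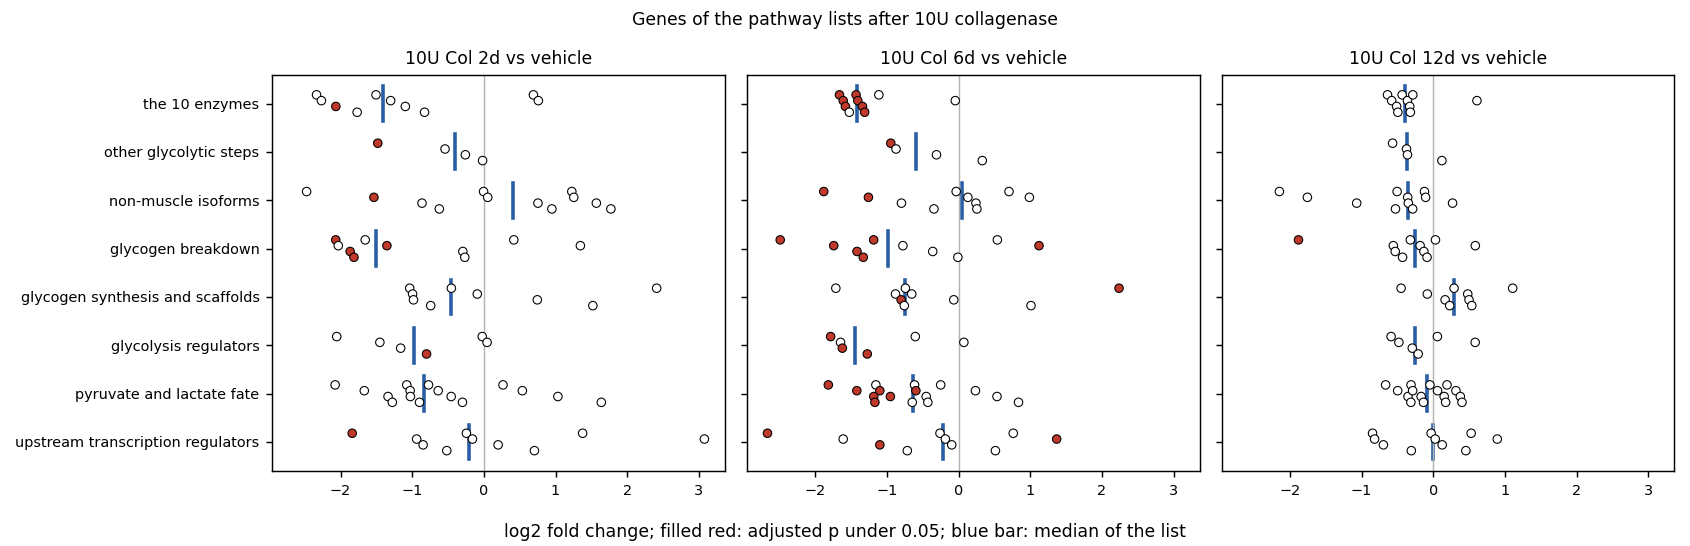
log2 fold changes of the members and of each pathway list at 2d, 6d and 12d post-Col (1 point per gene, filled red where called, blue bar at the median of the list). The members' medians are −1.40, −1.42 and −0.40, and the tested genes of the other 7 lists have a joint median of −0.52, −0.65 and −0.15.

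Markers of muscle fibres were also lower in sum in the 10U groups at 2d and 6d, and the members were set beside them after the values were seen. The 12 fibre markers summed to 91093 to 136298 CPM in Col vehicle, 41302 to 63169 CPM at 2d, 47433 to 66695 CPM at 6d and 53337 to 117839 CPM at 12d. Their median log2 fold change was −1.46 at 2d, with 1 of 12 called (Actn3, −1.91), and −1.06 at 6d, with 3 called (Ckm, −2.04, Tnnc2, −1.43, and Cacna1s, −1.04). Myh4, the myosin of the fastest glycolytic fibres, fell at 6d (−2.23). The macrophage and leukocyte markers summed to 119 to 484 CPM in vehicle, 522 to 1363 CPM at 2d and 1337 to 2732 CPM at 6d, where 7 of 9 rose, and 3 of 7 fibroblast and matrix markers rose at 6d. The part of these cells in the members' values was not tested.

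Relative to the mean of the fibre markers, several members lay lower than in vehicle. The difference of a member's log2 level from the mean log2 level of the 12 fibre markers, taken per mouse, differed from vehicle at 2d by −1.34 for Eno3, −1.20 for Pygm and −0.86 for Pgam2, each without overlap with vehicle. Aldoa (−0.49) and Pfkm (−0.24) were also without overlap, and Ldha (0.21) was not. Hk1 and Hk2 were higher than vehicle on this measure at 2d by 1.91 and 1.83, with overlap through replicate 4. In all, 5 members were lower without overlap on this measure at 2d, against 0.397% of all genes. Higher without overlap were 0 members, against 71.6% of all genes. At 6d the 7 called members were all lower than vehicle on this measure without overlap, against 3.59% of all genes. Their differences ran from −0.88 (Pygm) to −0.53 (Hk2). Fibre genes differed among themselves, and the log2 fold changes of Ckm and Myh4 at 6d, given above, were lower than that of any member. Ldha was at −0.33 and Hk1 at 0.81, both overlapping. Higher without overlap at 6d were 0 members, against 64.8% of all genes. The fibre markers were lower in sum at 2d and 6d, which moves most genes up on this measure, so the small shares of lower genes follow partly from the measure. At 12d Pygm (−0.42) and Pfkm (−0.21) were lower without overlap, against 0.797% of all genes, and Pgk1 (1.12) was higher, against 10.5%. At CFA 1d Eno3 (−0.52) and Pfkm (−0.39) were lower, against 1.36%, and 0 members were lower without overlap in CFA 5d, 1C and RPC. Higher without overlap were Ldha (0.54) in CFA 5d, Hk1 (0.94) and Ldhb (1.08) in 1C, and Hk2 (1.13) in RPC, against 10.6%, 32.4% and 31.3% of all genes. These differences are on the log2 scale and are given without a test. Salivary gland markers, at 23.2, 104571 and 23658 CPM in the vehicle mice and 0.730 to 2.36 CPM at 6d, also differed between these groups, and their part was not tested.

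**Figure D5:**
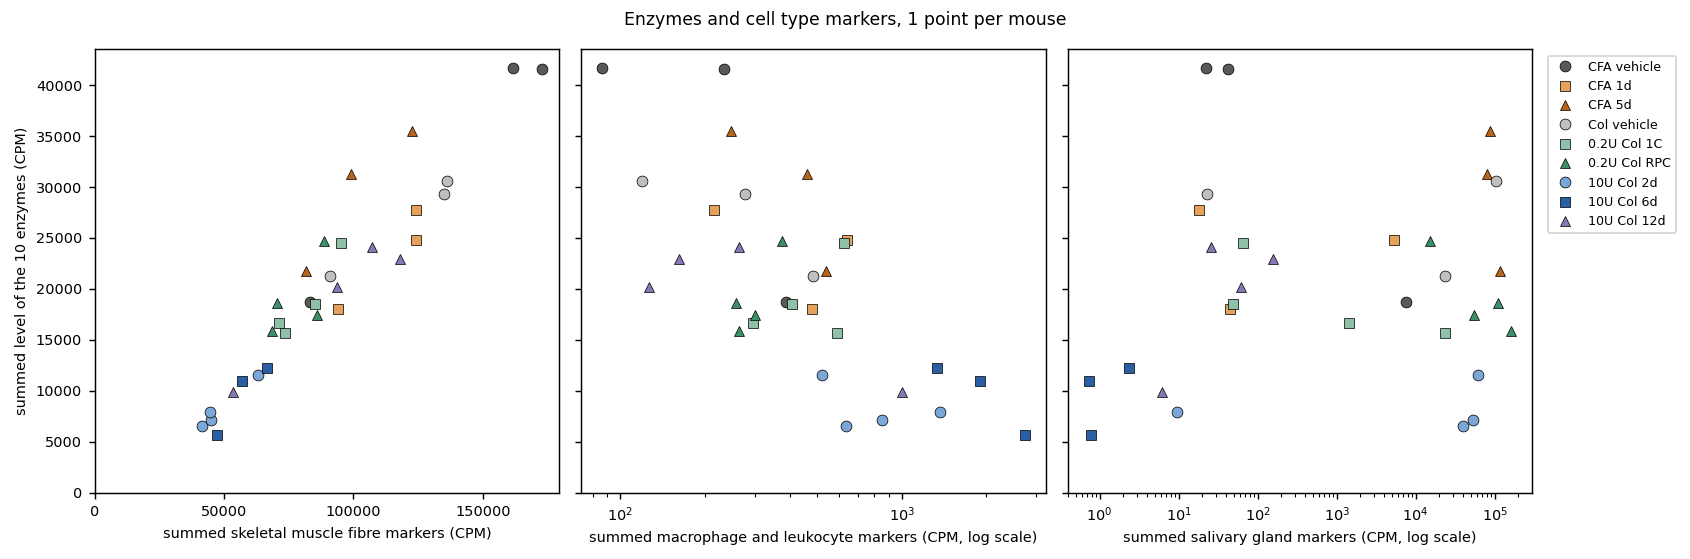
Summed CPM of the 10 members (vertical axis) against the summed CPM of muscle fibre markers (linear axis), macrophage and leukocyte markers and salivary gland markers (log axes), 1 point per mouse, coloured by group. The 2d and 6d post-Col mice, at 5692 to 12262 CPM of members, and 12d replicate 4 have the lowest fibre sums, and salivary gland sums differ widely within the Col vehicle and the 2d groups.

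Over the 31 libraries the gene whose log2 CPM followed the mean of the members most closely was Aldoart2 (Pearson r = 0.97 over 13510 genes), a retrogene of Aldoa that can share its reads, followed by Ecsit (0.96), a mitochondrial assembly and signalling protein, Ckm (0.95), the muscle creatine kinase, Mybpc2 (0.95), the myosin binding protein of fast fibres, and Wfdc1 (0.95). Of these 5, 3 were also among the first 5 on library totals. Pygm was closest to Atp2a1 (r = 0.98), the calcium pump of fast fibres, Eno3 to Dhrs7c (0.97), a protein of the sarcoplasmic reticulum, Pgam2 to Slc25a4 (0.95), the ADP/ATP carrier of muscle, and Ldhb to Acadm (0.95), an enzyme of fatty acid oxidation. Among the members, Hk1 (r = −0.44) and Hk2 (0.33) followed the mean least, and the other 8 had r from 0.66 to 0.97, where each member is part of that mean. The libraries share groups, fibre content and scaling, so these are descriptions.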

How the data were processed

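Libraries of poly(A) RNA from whole masseter muscle, 1 per mouse, were made with a stranded kit and read as single ends of 50 bases. The authors aligned reads with TopHat2 to build mm9 and counted them per gene with HTSeq, per the labels' processing notes, and deposited raw counts per gene symbol for each of the 31 libraries. The strand setting and annotation are not given in the sources used here. Groups came from the sample titles. Members and lists were chosen with earlier results of these data known. The text names all 10 members, list genes that were called, except 1 not reported here, and the closest gene to each member's profile.

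A gene entered a comparison when 3 or more of its libraries held 10 or more reads of it, and was tested with edgeR 4.0.16 (quasi-likelihood, TMM, R 4.3.3), each group against its own vehicle, with Benjamini-Hochberg adjustment over all genes tested. DESeq2 1.42.0 was an alternative. Displayed CPM used TMM factors over all libraries, log values a pseudocount of 0.5, and RPKM exon lengths of the mm9 annotation. Scripts were tested on simulated data. No source says whether mice of a group were treated separately, so p-values measure the spread between these mice. Promoter sequences came from RefSeq GRCm38.p6.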

Additional observations from a re-analysis of the deposited data

Results flagged for a closer look

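In 40 sets of 4 values, each of 1 member in 1 group of 4 mice, 1 mouse lay far from the other 3 in 5 cases by Dixon's criterion. Chance meets it in about 1 of 20 independent sets, but the members were read in the same mice, so these sets are not independent. At 12d post-Col (10U), replicate 4 had 182 CPM of Hk2, where the others had 469 to 471, and 1504 CPM of Pfkm, where the others had 2976 to 3110.3. At 2d post-Col (10U), replicate 4 had 1890.4 CPM of Eno3, where the others had 363 to 617. In the 0.2U Col RPC group, replicate 1 had 4983 CPM of Eno3, where the others had 2548 to 2711, and 1362 CPM of Ldha, where the others had 775 to 851.

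Differences between days after 10U Col passed edgeR's test for 4 members. Hk2 was lower at 6d than at 2d (log2 difference −1.999), all 3 mice at 6d lying under all 4 at 2d. From 6d to 12d, Hk1 was lower (−0.62), and Pgk1 (2.10) and Ldhb (1.23) were higher, each without overlap between 3 and 4 mice. The mice that stood apart, 2d and 12d replicate 4, enter these comparisons, and the counts of calls without them are given with the other alternatives.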

How the results depend on the processing

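The members' directions were steadier than their calls. Of 1550 recomputed log2 fold changes 1338 kept sign and side of the threshold, 66 lost the call, 78 gained one, 67 uncalled ones changed sign, and 1 called one reversed: Hk1 at 6d was 0.49 without the libraries above 1000 CPM of salivary gland markers and with both vehicle groups pooled, an alternative added after seeing the data, in which 10 members and 55.9% of all genes were called at 6d, and 0 members in CFA 1d, 1C and 12d. It could not be run for CFA 5d, RPC and 2d, where under 2 treated mice remained.

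By DESeq2, 1 member was called at CFA 5d, 1 in 1C, 1 in RPC, 7 at 2d, 7 for 12d against 6d and 4 in the interaction. Of all genes DESeq2 called 6.36%, 3.58%, 3.10%, 23.1%, 37.4% and 18.6% in these comparisons. At 6d against vehicle DESeq2 called 9 members, all lower, and 18.5% of all genes lower. For 6d against 2d it called 1 member and 18.7% of all genes. On library totals, which shift all genes (median log2 change 0.38 at 2d, 0.54 at 6d), the counts were 0 at 2d, 1 at 6d and 0 for 6d against 2d, and the higher and lower calls of all genes went from 108 and 66 to 131 and 37 at 12d, from 679 and 588 to 805 and 331 for 6d against 2d, and from 647 and 1037 to 5472 and 527 in the interaction. In 1 fit of all libraries 7 were called at 2d, with 31.8% of all genes, and with the vehicle groups pooled 8, with 34.4% of all genes. The deviations of same-numbered mice from their group means correlated with r from −0.43 to 0.61. With so few mice per group this cannot settle whether the numbers pair them. With the replicate block 9 members were called at 2d, 2 at 6d, 3 for 6d against 2d and 10 for 12d against 6d. Of all genes 31.3%, 10.3%, 15.2% and 49.2% were then called. The block also takes the mice numbered 4, which the 3-mouse groups lack, out of the contrasts.

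Leaving out 1 mouse at a time gave 0 to 2 calls at CFA 5d (2 without CFA vehicle replicate 3, with 15.6% of all genes), 0 to 9 at 2d, 1 to 9 at 6d, 0 to 3 for 6d against 2d and 1 to 10 for 12d against 6d, and 0 in CFA 1d, 1C, RPC, 12d, the vehicles and the interaction. Separated isoform ratios numbered 0 to 2 at CFA 1d, 2 to 7 at CFA 5d, 1 to 7 in 1C, 3 to 5 in RPC, 5 to 6 at 2d, 5 to 7 at 6d and 0 to 2 at 12d. The 7 of CFA 5d came without CFA vehicle replicate 3 and the 7 of 1C without 1C replicate 2. Reads per mouse were at least 4020 for each of 7 members and went down to 354 for Hk1, 226 for Ldhb and 121 for Pgk1, so counting error weighs most on these.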

Other observations

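Other genes around the pathway also differed between days after 10U Col. From 2d to 6d 6 of 66 tested list genes were called by edgeR, against 8.73% of all genes. Of these, 4 were lower at 6d: the immediate early nuclear receptor Nr4a3 (−2.31), the brain aldolase Aldoc (−1.55), the monocarboxylate transporter Slc16a1 (−1.28) and the pyruvate dehydrogenase kinase Pdk1 (−0.86). The liver phosphorylase kinase subunit Phka2 (0.81) and the pyruvate carrier gene Brp44l (0.87) were higher.

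The response at 6d post-Col (10U) differed from that at 5d post-CFA for 10 of 67 list genes (interaction, edgeR), against 11.3% of all genes. The response to Col was lower for both catalytic subunits of phosphorylase kinase, Phkg1 (−2.44) and Phkg2 (−1.88), for Nr4a3 (−3.52), Nr4a1 (−2.97), the alanine transaminase Gpt2 (−1.83), Bpgm (−1.21), the brain phosphorylase Pygb (−0.92) and Pdk1 (−0.72), and higher for Stbd1 (2.35) and Hif1a (1.25). All 6 salivary gland markers were also called lower in this interaction, and their part in these values was not tested.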
